A study of Mus musculus with 26 samples.

Results

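The genes described here are 10 genes of glucose uptake, glycolysis and lactate exchange: the glucose carriers Slc2a1 and Slc2a3, the hexokinases Hk1 and Hk2, the enzymes Pgk1 and Pkm, the lactate dehydrogenase subunits Ldha and Ldhb, and the lactate carriers Slc16a1 and Slc16a3. They were chosen by symbol, with earlier results of these data known. Each matched 1 protein-coding row, and they are 10 of the 56941 rows of the deposited tables. All 10 passed the filter on low counts. RNA sequencing had been done on motor neuron spheroids of HBG3 mESC HB9::GFP, a line of mouse embryonic stem cells in which GFP reports on the motor neuron gene HB9 (Mnx1). The genotype label of every sample reads heterozygous blastocysts. Every group shared the expansion of the stem cells on a feeder layer, the differentiation with retinoic acid and the agent spelled puromorphamine in the labels, then ciliary and glial derived neurotrophic factors, and the seeding on fibrin around day 8.

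The labels gave 5 groups. In the mechanical arm, spheroids sat on a silicone array that magnets moved for 30 min a day at 4 Hz (actuated array, n = 4) or on the same array left still (static array, n = 4). In the biochemical arm, the groups were labelled high intensity (n = 6), low intensity (n = 6) and biochemical control (n = 6). The design text speaks of medium taken from optogenetic muscle, stimulated at 1 Hz or not for 30 min, under sample names that the labels do not match to the intensity groups. It is an assumption here that such medium went to the intensity groups alone. All samples came from 1 cell line, and no label says that replicates came from separate differentiations, so p-values measure the spread between these samples, which may be technical.

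Glucose enters cells through carriers of the Slc2a family, is phosphorylated by hexokinases and is broken down to pyruvate, with phosphoglycerate kinase and pyruvate kinase as the steps that yield ATP. Lactate dehydrogenase converts pyruvate and lactate into each other, and Slc16a carriers move lactate with protons across the membrane. In nervous tissue, Slc2a1 is known as the carrier of the blood-brain barrier endothelium and of glia and Slc2a3 as the carrier of neurons, and several of these genes are textbook targets of the hypoxia-inducible factor HIF-1.

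Total counts per library ranged from 1536 to 13162635. Protein-coding genes had no more than 1000000 counts in 5 libraries: replicate 3 of the static array, replicates 4 and 5 of high intensity, replicate 6 of low intensity and replicate 4 of the controls. The remaining 21 held 1551334 to 13162635 counts, are named the deeper libraries here, and comprised 5 controls, 5 low-intensity, 4 high-intensity, 4 actuated-array and 3 static-array libraries. The array libraries among them held 7269276 to 13162635 counts and the biochemical ones 1551334 to 3971348, so the array and the depth of sequencing cannot be told apart. Each comparison was made on all 26 libraries, the main analysis, and on the deeper libraries. Markers of the labelled cell type were present: 8 neuron markers summed to between 5189.5 and 10478 CPM (counts scaled to a library total of 1000000) in the deeper libraries, and 8 motor neuron markers to between 70.3 and 161 CPM. In such bulk RNA, fewer cells of a type and less RNA per cell cannot be told apart.

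Levels of different genes were compared per transcript length, as TPM, which sum to 1000000 in each library, in the 5 deeper control libraries. Pkm, the muscle-type pyruvate kinase gene that most tissues use, had the highest median, 323 TPM, followed by Ldha at 299, Ldhb at 209 and Pgk1 at 149 TPM. Hk1, the hexokinase of most neurons, stood at 89.4 TPM and Slc2a3 at 60.0 TPM. The lower end held Hk2, the inducible hexokinase, at 20.6 TPM, Slc16a3 at 10.9, Slc2a1 at 9.63 and Slc16a1 at 8.80 TPM. Of the 9 neighbouring pairs in this order, 4 kept it in all 5 controls: Ldha above Ldhb, Pgk1 above Hk1, Slc2a3 above Hk2, and Slc16a3 above Slc2a1. Hk1 was above Slc2a3 in 3 of the 5 controls and in 10 of the 21 deeper libraries, so this pair had no stable order. The order of Slc16a3 over Slc2a1 held in only 9 of the 21 deeper libraries.

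The scale of TPM differed between the groups. Protein-coding genes held 24.1% to 44.5% of all TPM in the deeper controls, 40.1% to 64.0% at high intensity, 55.3% to 65.1% at low intensity, and 50.1% to 66.9% on the arrays. In the deeper libraries the mean TPM of each of the 10 genes was lower in the controls than in any other group, also where the normalised counts went the other way. Groups were compared on counts scaled by the trimmed mean of M values (TMM) and given as CPM. Over the deeper libraries the 10 genes together took a median of 0.370% of protein-coding counts on the actuated array, 0.339% on the static array, 0.333% at low intensity, 0.303% in the controls and 0.271% at high intensity.

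**Figure D1:**
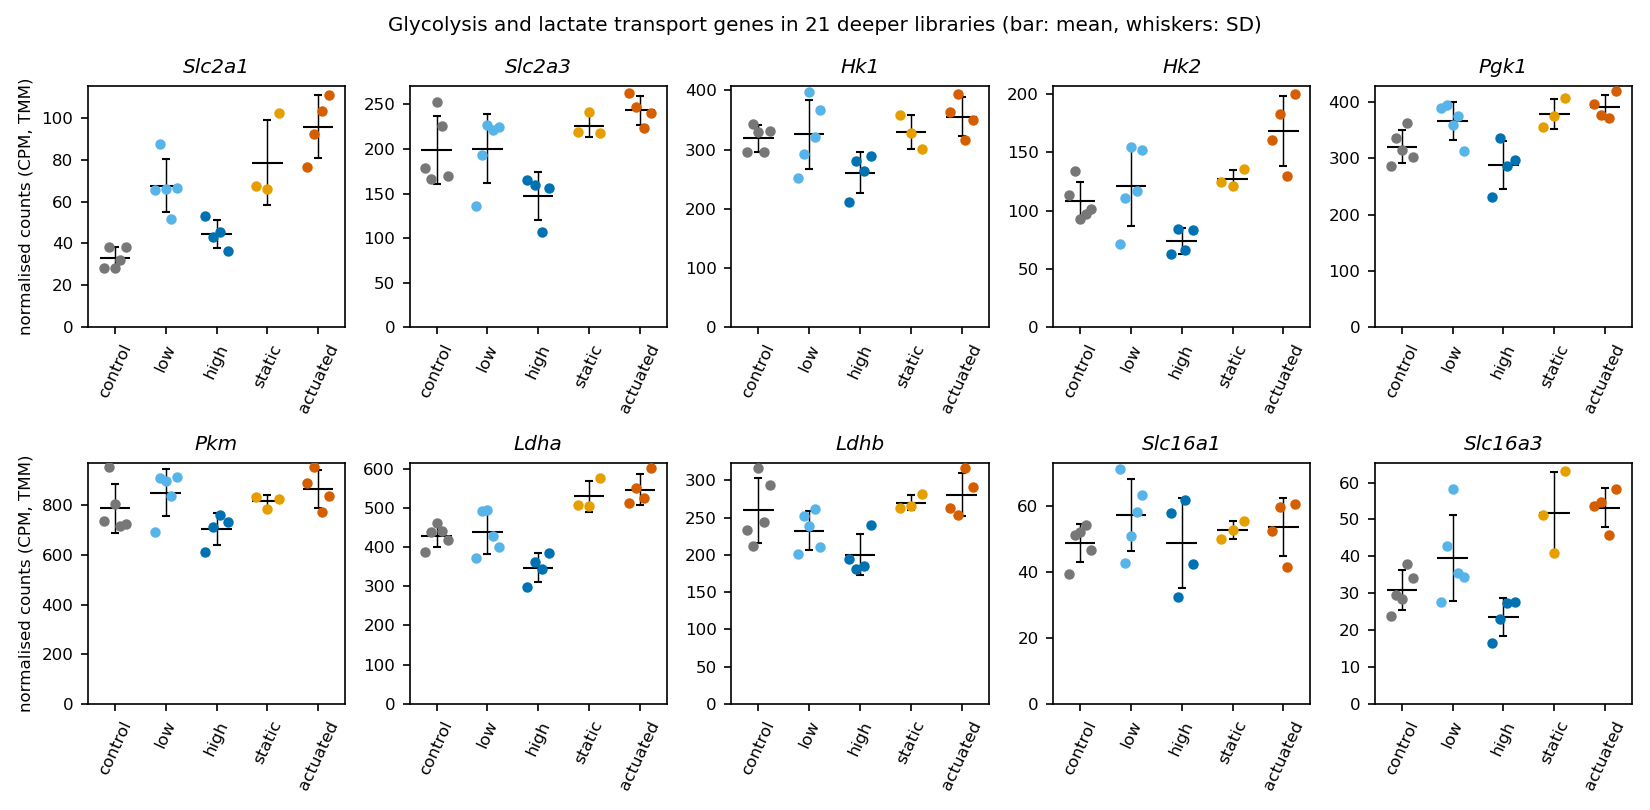
TMM-scaled CPM (vertical axis, from 0) of the 10 genes in each of the 21 deeper libraries, by group; points are libraries, horizontal bars are means and whiskers are SD. The Slc2a1 points of the low-intensity and static-array libraries lie above all 5 controls, and the high-intensity points are the lowest or among the lowest for Hk2, Ldha and Slc16a3.

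Slc2a1 (ENSMUSG00000028645), the glucose carrier of barriers and glia, was the only member that passed the test in any comparison of the deeper libraries. Its normalised counts in the controls were 28.2, 38.5, 28.5, 32.3 and 38.3 CPM. At low intensity they were 65.6, 87.3, 66.1, 51.8 and 66.7 CPM, and every library was above every control. On the static array they were 67.6, 65.9 and 102 CPM, again all above the controls. The actuated array gave 76.2, 92.0, 103 and 111 CPM, overlapping with the static array, and high intensity gave 53.0, 43.0, 45.4 and 36.6 CPM, overlapping with the controls through replicate 6.

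In the deeper libraries, Slc2a1 rose 2.04-fold at low intensity against the controls (log2 fold change 1.03, SE 0.17, edgeR quasi-likelihood test with Benjamini-Hochberg adjusted p = 0.00852). It rose 2.36-fold on the static array against the controls (log2 fold change 1.24, SE 0.18, edgeR adjusted p = 0.00164). The static array and the controls belong to different arms, with different depth, so the array, the arm and the depth cannot be told apart in the second value. Over all 26 libraries the changes were of like size, 1.11 (SE 0.39) and 1.36 (SE 0.41) on the log2 scale, but neither passed (edgeR adjusted p = 0.571 and 0.465). The 5 libraries left out held few reads of this gene: 42 counts in replicate 3 of the static array, 16 in replicate 5 of high intensity, and 0 in the other 3. On the TMM scale of the fit of all libraries, a count of 0 allowed up to 8.85 CPM in that control, 8.69 CPM in that high-intensity library and 59.6 CPM in that low-intensity library (3 counts, counting error only). The last value rests on an extreme TMM factor of 36.7 for a library of 1536 counts in all. Without that factor 3 counts there were 1953 CPM, so this library sets no useful limit on Slc2a1.

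The Slc2a1 call at low intensity was lost in the deeper libraries with limma's voom and quality weights (adjusted p = 0.131), and the static-array call held there (adjusted p = 0.0103). Slc2a1 passed in each of the 10 fits that left out 1 deeper library of the low-intensity comparison (edgeR adjusted p = 0.00449 to 0.0371) and in each of the 8 such fits of the static-array comparison (0.00192 to 0.0289). At high intensity the log2 difference of Slc2a1 was 0.42 from the controls (SE 0.18, edgeR adjusted p = 0.229) and -0.60 from low intensity (SE 0.17, edgeR adjusted p = 0.338), and neither passed. Actuation gave 0.29 (SE 0.18, edgeR adjusted p = 1) against the static array.

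Markers of other cell types were measured beside these changes. The endothelial list, whose cells carry Slc2a1 in the brain, summed to 0.678 to 34.4 CPM in the deeper libraries, and Cldn5, a junction protein of that endothelium, was listed at 0 in every deeper library of the controls, the static array, low intensity and high intensity. Cldn5 was the only 1 of the 5 endothelial markers so absent from the controls, the static array or high intensity, and 1 of 2 at low intensity, so the others were detected. On the static array against the controls, 2 of 3 fitted endothelial markers were higher over all libraries at an edgeR unadjusted p under 0.05 (5.27% of all genes, in either direction). In the deeper libraries 0 of 2 were. At low intensity the proliferation gene Top2a rose (log2 fold change 1.28, edgeR adjusted p = 0.0372) and the neuronal RNA-binding protein gene Elavl4 fell (log2 fold change -0.59, adjusted p = 0.0370). The summed 6 proliferation markers were 201 to 582 CPM at low intensity, 274 to 422 CPM on the static array and 166 to 232 CPM in the controls. At low intensity all 8 astrocyte markers had positive fold changes (median log2 fold change 0.19), with sums of 2575 to 4320 CPM against 2537 to 3260 in the controls, and so did all 7 mesenchymal markers (median 0.74), with sums of 234 to 2559 CPM against 346 to 893. In the static-array libraries the astrocyte markers summed to 3619 to 4390 CPM against 2537 to 3260 in the controls, with all 8 fold changes positive, and the choline carrier gene Slc5a7, a motor neuron marker, fell (log2 fold change -1.88, edgeR adjusted p = 0.00392). All 6 fitted oligodendrocyte-lineage markers were positive there, with a median log2 fold change of 1.48. Over all 26 libraries none of the 3 marker genes passed (edgeR adjusted p = 0.410 for Top2a, 0.930 for Elavl4 and 0.590 for Slc5a7). The part of these markers in the Slc2a1 result was not tested.

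Slc2a3 (ENSMUSG00000003153), the high-affinity carrier of neurons, passed in no comparison. Its normalised counts were 179, 167, 253, 226 and 170 CPM in the controls and 136, 193, 227, 221 and 224 CPM at low intensity, which overlapped throughout (log2 fold change 0.01, SE 0.14). At high intensity they were 166, 160, 107 and 156 CPM, all below the lowest control, with a log2 difference of -0.43 (SE 0.15, edgeR adjusted p = 0.163). Without high-intensity replicate 3 that difference was -0.31 (SE 0.15, edgeR adjusted p = 0.470). The static array, at 218 to 241 CPM, had a log2 difference of 0.19 from the controls (SE 0.16). The actuated array, at 224 to 263 CPM, had one of 0.11 from the static array (SE 0.17).

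The TPM and the counts of Slc2a3 did not move together. The ratio of its counts to its TPM, divided by the median of that ratio over genes in the same library, was 1.58 and 1.56 in control replicates 2 and 3 and 1.49 in high-intensity replicate 3, and 0.481 to 0.849 in the other 18 deeper libraries. This 3.30-fold range was larger than that of 91.7% of 5360 genes, whose median range was 1.64-fold, and the range of Pkm was 1.12-fold. In those 3 libraries Slc2a3 stood at 29.7, 54.2 and 23.3 TPM, the lowest 3 of the 21. The sources used here do not say how reads were shared between transcripts, so the TPM of Slc2a3 is uncertain and its counts were used for comparisons.

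**Figure D2:**
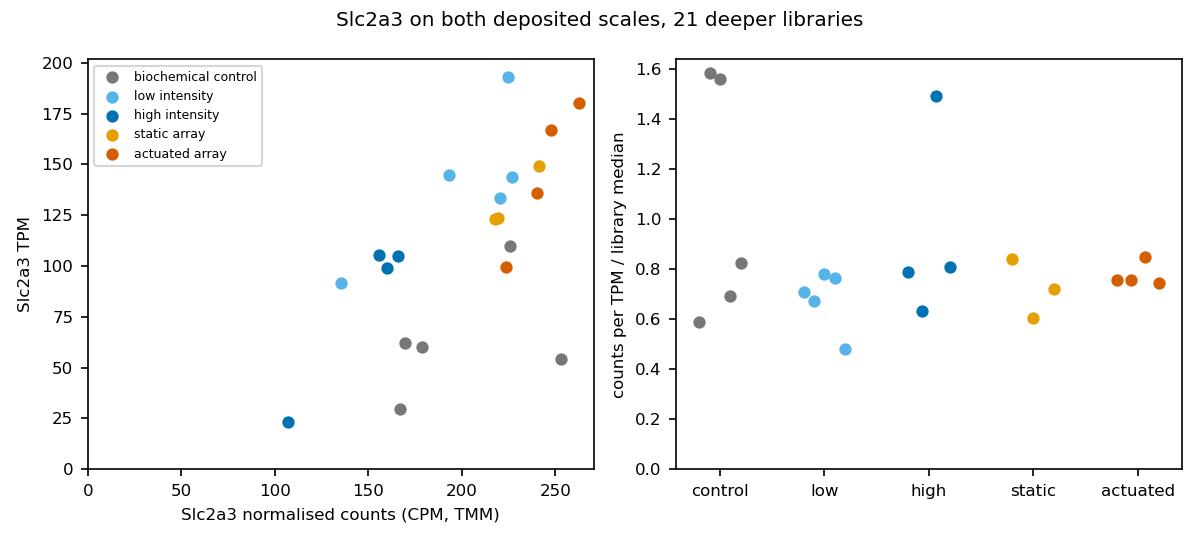
Left, Slc2a3 TPM against its TMM-scaled CPM in the 21 deeper libraries; right, its counts per TPM relative to the library's median gene, by group. The libraries with a ratio of 1.49 to 1.58 are 2 controls and 1 high-intensity library, and they have low TPM for their counts.

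The balance of the paired genes was measured within each deeper library, which needs no scaling. With TPM, none of 20 tests (4 pairs in 5 comparisons, exact two-sided permutation tests) passed, and the smallest adjusted p was 0.635. The log2 ratio of Slc2a1 to Slc2a3 was -2.68 ± 0.67 (SD, n = 5) in the controls and -2.05 ± 0.57 (SD, n = 5) at low intensity. With counts in place of TPM, the low-intensity ratio exceeded the control ratio by 1.01 (exact permutation p = 0.00794, the smallest that 5 against 5 allow, adjusted p = 0.159), the high-intensity ratio by 0.86 (exact p = 0.0159, adjusted p = 0.159) and the static-array ratio by 1.02 (exact p = 0.0357, adjusted p = 0.179). In each of these 3 the groups did not overlap, and none passed the adjustment. The share of Slc2a1 was larger in the intensity or array libraries than in the controls, but its counts stayed below those of Slc2a3 in every group. The latter 2 p are also the smallest that 4 against 5 and 3 against 5 allow, and actuation, with 4 against 3, could not go below 0.0571, so missing the threshold over 20 tests does not show that the ratios were alike. For Slc16a1 to Slc16a3 the difference of the static array from the controls was -0.62 by counts, without overlap (exact p = 0.0357, adjusted p = 0.179). Ldha over Ldhb differed by at most 0.23 in any comparison by counts (all exact p at least 0.167), and Hk1 over Hk2 by at most 0.35 (exact p at least 0.0635).

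The windows just upstream of 3 members are shown because Slc2a1 was the member that changed and because Ldha and Slc16a3 had the most similar values of any 2 members over the deeper libraries. They are the 250 bases before the annotated transcript start on the + strand, from RefSeq on build GRCm38.p6, at chr4:119108495-119108744 for Slc2a1, chr7:46845554-46845803 for Ldha (the first of its 2 listed starts) and chr11:120948817-120949066 for Slc16a3. Capitals mark matches, on either strand, to the core letters ACGTG or GCGTG bound by HIF-1; CACGTG, the E-box, contains this core on both strands.
Slc2a1: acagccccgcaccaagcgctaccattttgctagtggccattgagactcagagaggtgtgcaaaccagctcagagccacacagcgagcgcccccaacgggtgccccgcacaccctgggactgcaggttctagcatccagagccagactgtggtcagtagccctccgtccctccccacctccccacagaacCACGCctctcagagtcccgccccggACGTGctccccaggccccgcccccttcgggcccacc
Ldha: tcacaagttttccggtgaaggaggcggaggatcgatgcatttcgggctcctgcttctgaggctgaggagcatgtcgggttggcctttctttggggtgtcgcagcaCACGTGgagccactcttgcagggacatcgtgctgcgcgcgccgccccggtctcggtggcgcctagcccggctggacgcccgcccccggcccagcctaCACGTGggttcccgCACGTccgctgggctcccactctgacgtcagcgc
Slc16a3: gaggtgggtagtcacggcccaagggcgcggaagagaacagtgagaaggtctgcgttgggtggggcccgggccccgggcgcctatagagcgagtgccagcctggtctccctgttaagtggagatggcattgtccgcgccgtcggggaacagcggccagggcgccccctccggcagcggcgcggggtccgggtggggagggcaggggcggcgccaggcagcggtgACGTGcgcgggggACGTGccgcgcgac

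The Slc2a1 window held 2 matches, starting 61 and 36 bases before the transcript start, the Slc16a3 window 2 matches, 27 and 14 bases before it, and the Ldha window 5 matches, of which 4 came from its 2 E-boxes read on both strands. Windows were listed for 9 of the 10 members, 12 windows in all, and 10 of them, covering all 9 genes, held at least 1 match. Of all 32851 windows of 250 bases in the table, 38.6% held the core on either strand and 6.02% held CACGTG. A match in a window is a description of letters, and no binding was measured.

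The hexokinases, which trap glucose in the cell, had no call. Hk2 (ENSMUSG00000000628) was at 113, 134, 92.7, 97.3 and 102 CPM in the controls and at 63.1, 83.9, 66.2 and 83.8 CPM at high intensity, with every high-intensity library below every control. The log2 difference was -0.54 (SE 0.18, edgeR adjusted p = 0.135). Low intensity spread from 71.1 to 154 CPM around a median of 116, and the log2 difference of high from low intensity was -0.70 (SE 0.18, edgeR adjusted p = 0.246). Hk2 was at 125, 121 and 136 CPM on the static array and at 160, 183, 130 and 200 CPM on the actuated array, with overlap through actuated replicate 3, and the difference of 0.40 (SE 0.20, edgeR adjusted p = 1) had the smallest p-value of the 10 genes for actuation. Hk1 (ENSMUSG00000037012), at 295 to 344 CPM in the controls and 211 to 289.8 CPM at high intensity, likewise did not overlap there (log2 difference -0.29, SE 0.12, edgeR adjusted p = 0.242).

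Pgk1 (ENSMUSG00000062070), phosphoglycerate kinase, lay at 286 to 362 CPM in the controls, 312 to 395 at low intensity, 231 to 335 at high intensity, 355 to 407 on the static array and 371 to 419 CPM on the actuated array. Pkm (ENSMUSG00000032294) lay at 717 to 956 CPM in the controls and 614 to 761 CPM at high intensity. Low intensity, high intensity and the static array each overlapped with the controls for both genes. Of the comparisons with the controls, the smallest p for Pgk1 was on the static array (0.24, SE 0.11, edgeR adjusted p = 0.376) and that for Pkm at high intensity (-0.16, SE 0.11, edgeR adjusted p = 0.490). Against low intensity, the log2 difference of high intensity was -0.35 for Pgk1 (SE 0.11, edgeR adjusted p = 0.401) and -0.27 for Pkm (SE 0.11, edgeR adjusted p = 0.558), and neither passed.

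Ldha (ENSMUSG00000063229) encodes the lactate dehydrogenase subunit of glycolytic tissue. Its normalised counts were 387, 438, 460.3, 441 and 417 CPM in the controls, 508, 506 and 575 CPM on the static array and 298, 363, 344 and 385 CPM at high intensity. The static array lay wholly above the controls (log2 difference 0.30, SE 0.11, edgeR adjusted p = 0.209) and high intensity wholly below them (-0.30, SE 0.10, edgeR adjusted p = 0.138). Low intensity, at 373 to 494 CPM, overlapped with the controls (log2 fold change 0.03, SE 0.10). Ldhb (ENSMUSG00000030246), the subunit of oxidative tissue, was at 233, 212, 316, 244 and 293 CPM in the controls and at 194, 181, 185 and 240.5 CPM at high intensity, where replicate 6 overlapped (-0.37, SE 0.12, edgeR adjusted p = 0.133). Without that library the difference was -0.47 and passed (edgeR adjusted p = 0.0493), the only call of a member other than Slc2a1 in any fit with 1 deeper library left out.

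Slc16a3 (ENSMUSG00000025161) encodes MCT4, a lactate exporter of glycolytic cells. It was at 23.9, 29.4, 28.5, 37.9 and 34.2 CPM in the controls and at 51.2, 40.8 and 63.1 CPM on the static array, all above the controls. The log2 difference was 0.75 (SE 0.21, edgeR adjusted p = 0.103), the second largest of the members in that comparison. High intensity, at 16.4, 23.1, 27.4 and 27.5 CPM, lay below every low-intensity library (27.7, 42.7, 58.2, 35.4 and 34.4 CPM), with a log2 difference of -0.76 (SE 0.21, edgeR adjusted p = 0.327), and the 2 nearest libraries of these groups were at 27.5 and 27.7 CPM. Slc16a1 (ENSMUSG00000032902), which encodes the widespread carrier MCT1, stayed between 32.4 and 71.1 CPM in all deeper libraries, and its log2 differences lay between -0.24 and 0.24.

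Read across the 10 genes, the counts of calls were as follows. Over all 26 libraries edgeR called 0 members in all 5 comparisons, where it called 0.0402% of all genes fitted at high intensity against the controls, 0.0268% at low intensity, 0.0134% on the static array against the controls, 0% for actuation and 0% for high against low intensity. At an unadjusted p under 0.05 there were 2 members on the static array (5.27% of all genes), 1 at low intensity (5.23%), 2 for high against low intensity (2.91%), 0 at high intensity against the controls (7.04%) and 0 for actuation (3.86%). On all libraries, DESeq2 and limma's voom with quality weights each called Slc2a1 on the static array (adjusted p = 0.0210 and 0.0171), where they called 0.0671% and 0.282% of all genes. Both called 0 members elsewhere, where limma called 0% of all genes and DESeq2 called 0.51% at high intensity against the controls, 0.121% at low intensity, 0.0402% for high against low intensity and 0.181% for actuation. In the deeper libraries edgeR called 1 member, Slc2a1, at low intensity, where it called 0.597% of all genes, and 1 on the static array, where it called 0.713%. It called 0 members at high intensity against the controls (0.462% of all genes), for high against low intensity (0%) and for actuation (0%), and DESeq2 and limma on the deeper libraries also called 0 in these. In these 3 comparisons DESeq2 called 3.16%, 0.278% and 0.0136% of all genes and limma 0%. On the same libraries limma called 0.00679% of all genes at low intensity against the controls and 1.03% on the static array.

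At high intensity against the controls, 8 of the 10 members had lower normalised counts in the deeper libraries, with a median log2 difference of -0.30 against 0.00 over all genes fitted, and group means of TPM in the same libraries gave the opposite sign for all 8, with Hk2 nearly level at 20.3 against 20.1 TPM. By medians of TPM, Hk1, Hk2 and Ldhb were lower at high intensity and the other 5 of these were higher. Group means of TPM rescaled to protein-coding genes also put 8 of 10 lower. Medians of the rescaled TPM put Slc2a3 and Pgk1 higher instead (173 against 168 and 394 against 381), with Pkm nearly level at 791 against 792. At an unadjusted p under 0.05, 5 were lower (Slc2a3, Hk1, Hk2, Ldha and Ldhb), where 7.28% of all genes were, and Slc2a1 was higher; the number lower was between 4 and 6 when each library of the 2 groups was left out. By normalised counts, all high-intensity libraries were below all controls in 4 of the 10 (Slc2a3, Hk1, Hk2 and Ldha), as in 1.49% of all genes. In the rescaled TPM the groups overlapped for all 4. Hk2 was there at 28.5 to 50.3 against 45.9 to 61.6, and Ldha at 508 to 673 against 651 to 872. Against low intensity all 10 were lower by normalised counts and by group means of TPM, with a median of -0.34 against 0.01 over all genes, although limma on log2(TPM + 0.1) over all libraries put 6 of 10 higher. That fit includes low-intensity replicate 6, a library of 1536 counts with 0 TPM for every member but Pkm, and its part in these signs was not tested. In the deeper libraries, 8 were lower than at low intensity at an unadjusted p under 0.05 (4.06% of all genes were lower so). By normalised counts 1, Slc16a3, did not overlap (1.35% of all genes). In the rescaled TPM Slc16a3 did overlap, at 23.8 to 38.4 against 32.9 to 62.8 at low intensity. These 2 comparisons share the high-intensity libraries.

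At low intensity against the controls, 9 of 10 were positive with a median of 0.14 in the deeper libraries and 6 of 10 with a median of 0.05 in all libraries, while limma on log2(TPM + 0.1) over all libraries put 3 of 10 higher. The TPM fit again includes low-intensity replicate 6, with 0 TPM for every member but Pkm. In the deeper libraries, Slc2a1 alone had an unadjusted p under 0.05 (8.57% of all genes were higher so) and alone did not overlap (1.28% of all genes). With control replicate 5 left out 3 members had such a p, with replicate 1 of low intensity left out likewise 3, and with replicate 5 of low intensity left out 2, and the median lay between 0.07 and 0.20 when each library was left out. On the static array against the controls, all 10 were positive in the deeper libraries (8 of 10 in all libraries), with a median of 0.21, and 4 had an unadjusted p under 0.05 (Slc2a1, Pgk1, Ldha and Slc16a3), where 6.1% of all genes were higher so. Without static-array replicate 4 there were 2 (Slc2a1 and Slc16a3). Of the 4, Slc2a1, Ldha and Slc16a3 did not overlap with the controls by normalised counts, as in 4.52% of all genes. In TPM rescaled to protein-coding genes, Slc2a1 again did not overlap (50.8 to 73.7 against 21.6 to 32.2). On that scale Ldha (775 to 991 against 651 to 872) and Slc16a3 (37.3 to 69.9 against 23.7 to 55.3) did overlap. For actuation all 10 were positive with a median of 0.07, against a median of 0.00 over all genes, 0 had an unadjusted p under 0.05 (0.38% of all genes had, in either direction) and 0 were free of overlap (4.33% of all genes, in either direction). Leaving out 1 library turned up to 3 of the 10 actuation signs.

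**Figure D3:**
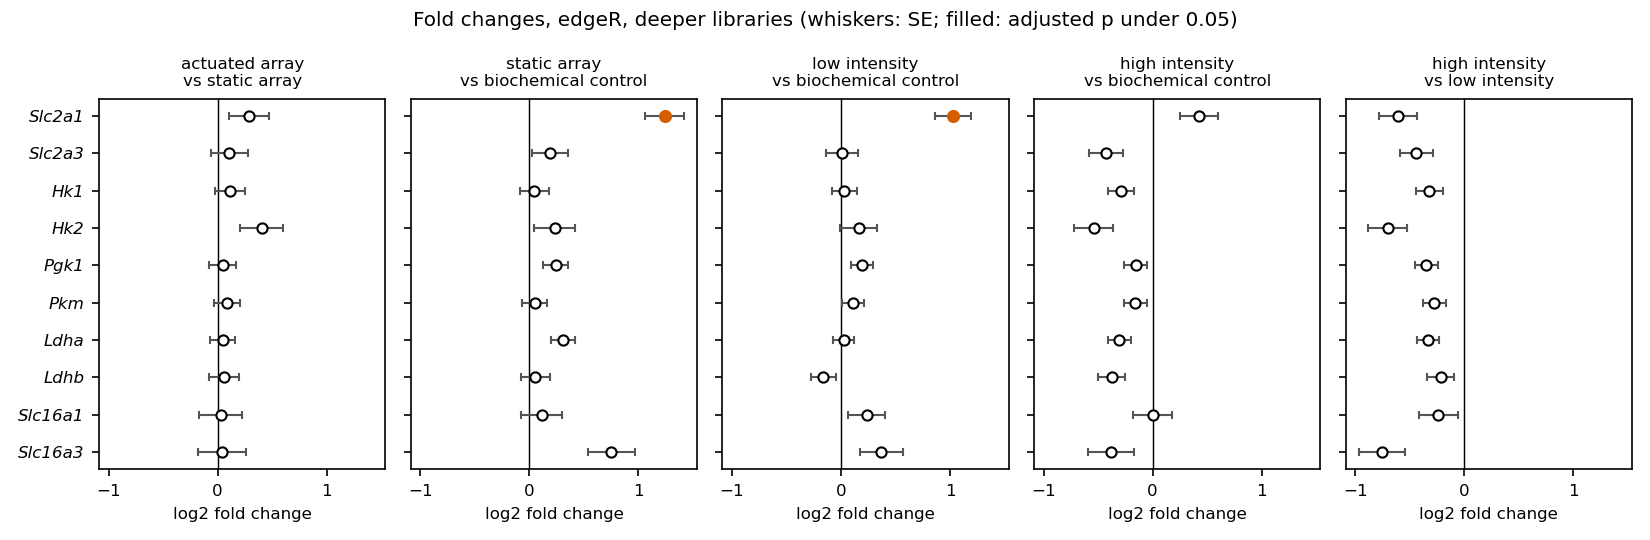
Log2 fold changes (horizontal axes) of the 10 genes in the 5 comparisons, edgeR on the deeper libraries; points are estimates, whiskers are SE, and filled points passed at adjusted p under 0.05. Only Slc2a1 is filled, on the static array and at low intensity against the controls, and all 10 points lie left of 0 for high against low intensity.

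The cell-type markers differed at high intensity too. Top2a and Mki67, markers of dividing cells, rose against the controls in the deeper libraries (log2 fold changes 1.30 and 1.31, edgeR adjusted p = 0.0448 and 0.0364, and 0.193 and 0.169 over all libraries), and the 6 proliferation markers summed to 303 to 899 CPM against 166 to 232. All 8 neuron markers were lower, with a median log2 difference of -0.28 and 5 at an unadjusted p under 0.05, and their sum was 5189.5 to 7539 CPM against 7490 to 8339. All 7 mesenchymal markers were higher, with a median of 1.23, and summed to 898 to 2366 CPM against 346 to 893. Of 8 muscle markers 4 were fitted, and all 4 were higher (median 1.48), with 2 at an unadjusted p under 0.05 (15.9% of all genes, in either direction). The 8 muscle markers summed to 22.5 to 183 CPM against 8.44 to 99.9, with overlap. Against low intensity, all 7 mesenchymal markers were higher at high intensity (median 0.71), with overlapping sums, 7 of 8 neuron markers were lower (median -0.12), and all 8 astrocyte markers were lower (median -0.11), with sums of 2779 to 3171 CPM against 2575 to 4320. The part of these markers in the lower values of the glycolytic genes was not tested.

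The rest of the pathway was read from 6 further lists of 79 genes, of which 61 passed the filter. The lists were chosen with earlier results of these data known, so the shares below are descriptions and not independent tests. Over all libraries, 0 of the 61 were called by edgeR in each comparison. At an unadjusted p under 0.05 there were 4 at high intensity, 6.56% against 7.04% of all genes. Low intensity had 3 (4.92% against 5.23%) and the static array 2 (3.28% against 5.27%). For high against low intensity there were 4 (6.56% against 2.91%), and for actuation 0 (against 3.86%). In the deeper libraries 1 was called: P4ha1, a collagen prolyl hydroxylase gene among the HIF-1 targets, rose on the static array against the controls (log2 fold change 1.00, SE 0.23, edgeR adjusted p = 0.0394, and 0.708 over all libraries). P4ha1 had 53.8 ± 20.6 CPM (SD, n = 5) in the controls and 107 ± 32.5 CPM (SD, n = 3) on the static array. At an unadjusted p under 0.05, 14 of the 61 were lower and 3 higher at high intensity against the controls, 27.9% in all against 15.9% of all genes. For high against low intensity 19 were lower and 1 higher, 32.8% against 7.68% of all genes. At low intensity 5 were higher and 3 lower, and this share of 13.1% was below the 15.2% of all genes. The static array had 11 higher and 1 lower, 19.7% against 12.6% of all genes, and for actuation there were 0. DESeq2 on the deeper libraries called 10 of the 61 at high intensity against the controls, where it called 3.16% of all genes, 5 for high against low intensity (0.278% of all genes), 3 at low intensity (3.19%), 2 on the static array (2.58%) and 0 for actuation (0.0136%). The 10 were Eno2, Pdk4, Bnip3l, Bsg, Tpi1, Pcx, Aldoa, Egln1, Gpi1 and Bnip3, and Pdk4 was the only one of them that was higher.

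Of the 13 other glycolytic enzyme genes fitted, 12 were lower at high intensity than in the controls, with a median log2 difference of -0.28, and 7 had an unadjusted p under 0.05. Aldoa, the main aldolase gene, had the smallest p (-0.37, SE 0.09, edgeR adjusted p = 0.0631) with 523 ± 43.1 CPM (SD, n = 4) at high intensity and 677 ± 46.8 CPM (SD, n = 5) in the controls. The exception was the muscle-type enolase gene Eno3, which was higher by 3.55 (SE 1.10, adjusted p = 0.116), with 0 to 40.9 CPM at high intensity and 0 to 3.74 CPM in the controls. Tpi1, triose phosphate isomerase, had the smallest p of the list for high against low intensity (-0.46, SE 0.10, edgeR adjusted p = 0.140). Gapdh and Eno1 had the highest levels of the list in the controls, with medians of 631 and 439 TPM.

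Among the other carriers and chaperones, Bsg (basigin), the partner that takes MCT1 and MCT4 to the membrane, was the most abundant, with a median of 534.5 TPM in the controls. It was at 470 ± 43.6 CPM (SD, n = 4) at high intensity, 612 ± 51.6 CPM (SD, n = 5) in the controls and 621 ± 52.4 CPM (SD, n = 5) at low intensity, and the log2 differences of high intensity were -0.38 from the controls and -0.40 from low intensity (SE 0.10 each, edgeR adjusted p = 0.0612 and 0.185). Of the HIF-1 targets, 12 of 15 were lower at high intensity than in the controls (median -0.25) and 14 of 15 lower than at low intensity (median -0.32), while 14 of 15 were higher on the static array than in the controls (median 0.36). Egln1, the oxygen-sensing prolyl hydroxylase that marks HIF for removal, had the smallest p of this list at high intensity (-0.56 against the controls and -0.69 against low intensity, edgeR adjusted p = 0.0585 and 0.0939). Bnip3 and Bnip3l were its most abundant genes, with medians of 309.9 and 288 TPM in the controls.

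In the pyruvate entry list, Pdk4, a kinase that shuts off pyruvate dehydrogenase, was higher by 2.08 (SE 0.53) at high intensity and 1.74 (SE 0.51) at low intensity than in the controls on the log2 scale, without passing (edgeR adjusted p = 0.0644 and 0.0910). Its level was 3.15 to 8.11 CPM in the controls, 6.05 to 67.0 CPM at high intensity and 8.17 to 24.3 CPM at low intensity. Pgd, an enzyme of the pentose phosphate branch, was the gene of smallest p of that list at low intensity (0.71, SE 0.19, edgeR adjusted p = 0.0614). In the deeper libraries, 7 of the 8 pentose phosphate genes were higher at high intensity than in the controls, with a median log2 difference of 0.23. For the regulators of fructose bisphosphate, Pfkfb3 was both the most abundant, with a median of 42.4 TPM in the controls, and the one with the smallest p for high against low intensity (-0.43, SE 0.14, edgeR adjusted p = 0.469).

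**Figure D4:**
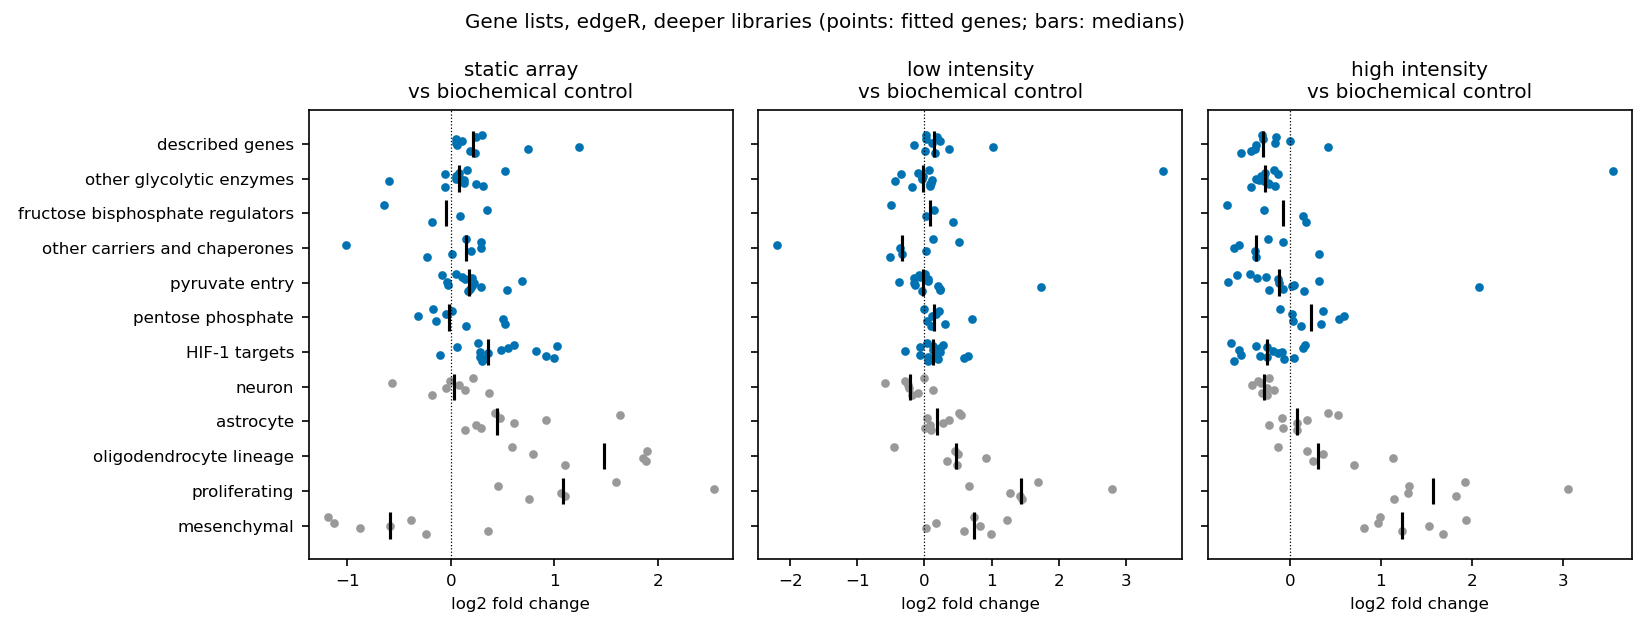
Log2 fold changes (horizontal axes) of the fitted genes of each list in the 3 comparisons with the biochemical controls, edgeR on the deeper libraries; each point is a gene and each bar the list's median, with pathway lists in blue and cell-type markers in grey. The pathway medians lie between -0.04 and 0.36 on the static array. At high intensity they lie between -0.38 (other carriers and chaperones) and 0.23 (pentose phosphate), with the other glycolytic enzymes at -0.28 and the HIF-1 targets at -0.25.

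The genes most like each member were taken as the 3 highest Pearson correlations of log2 CPM over the 21 deeper libraries among 9883 genes with at least 10 CPM on average. The points share the groups, the 2 arms and the depth, so the correlations are descriptions. Ldha and Slc16a3 were each other's nearest gene (r = 0.93), and Pgam1, phosphoglycerate mutase, was second for both (r = 0.92 each) and first for Pgk1 (r = 0.89). Hk2 was nearest to Bnip3 (r = 0.90) and Aldoa (r = 0.89), and Hk1 to Hk2 (r = 0.87) and Aldoa (r = 0.86). Pkm was nearest to Hk1 (r = 0.81) and Ldhb to the neuronal tubulin gene Tubb3 (r = 0.85).

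Slc2a1 and Slc2a3 shared none of their 3 nearest genes. Those of Slc2a1 were Hdac5 (r = 0.86), Pdpn (r = 0.85) and Psmd7 (r = 0.85), and those of Slc2a3 were Atpif1 (r = 0.87), Epm2a (r = 0.86) and Brsk1 (r = 0.86). Slc16a1 had the lowest top value of the 10, with Mdm1 (r = 0.77). The member most like Slc2a1 was Slc16a3 (r = 0.70), which ranked 97 among the 9883 genes, and the member most like Slc16a1 was Slc2a1 (r = 0.27), which ranked 1387.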

How the data were processed

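RNA from 26 spheroid samples had been made into libraries with a ribosomal-depletion kit (4 ng of input RNA, or the full volume for the 8 samples of lowest concentration) and sequenced as 50-base read pairs, per the labels' protocols. The authors deposited a table of counts per gene, which are whole numbers and are treated here like estimated counts, since a transcript quantifier is among the listed tools, and a table of TPM per gene, which sums to 1000000 in each library. The submitters' processing notes list BWA 0.7.12-r1039, bedtools 2.25.0, STAR and Salmon, and the builds mm10, hg19 and GRCm39, without saying which made which table, so no coordinates of the deposited tables are given. The members and all gene lists were chosen with earlier results of these data known.

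The main test was edgeR's quasi-likelihood test (edgeR 4.0.16, R 4.3.3) on the counts of all 26 libraries in 1 fit over the 5 groups, with TMM scaling, the filterByExpr filter and Benjamini-Hochberg adjustment over all 14907 genes kept, called at 0.05. The same fit on the 21 libraries with over 1000000 protein-coding counts kept 14730 genes. Other settings used DESeq2 1.42.0, limma 3.58.1, each library left out in turn, and TPM with a pseudocount of 0.1 or 1. Ratios of paired genes were log2 ratios of TPM + 0.1, tested with exact two-sided permutation tests. Named genes were the 10 members, each pathway gene that passed, the gene of smallest p of a list in a comparison where none passed, the 2 genes of highest median TPM in the controls of a list, and the 3 genes most correlated with a member. Cldn5, the values of Eno3 at high intensity and the genes called by DESeq2 were picked after their values were seen. On simulated counts for low intensity against the controls in the deeper libraries (14323 genes), the test recovered 55 of 100 genes changed 2-fold and 66 of 100 changed 3-fold, with 1 unchanged gene called. The changed genes were drawn at random from all genes kept, whatever their level, and any that the filter then removed counted as not recovered. Processed copies of Pgk1, Ldha and Ldhb have rows of their own and held 0 to 139 counts in total, against 27981 to 52470 for the genes. Floors of 3 counts cover counting error only. Gene types were taken from the count table, and those of the TPM table matched them in only 25.3% of rows. The protein-coding shares of counts and TPM rest on this choice.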

Additional observations from a re-analysis of the deposited data

Results flagged for a closer look

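The normalised count of Slc2a3 in high-intensity replicate 3 was 107 CPM, and the other 3 deeper high-intensity libraries lay between 156 and 166 CPM. Its gap to the nearest of them was 0.833 of the group's whole range, just above the limit of 0.829 for 4 samples. It was 1 of 56 groups of values examined in this way, where chance gives about 1 in 20, or 2.8. The same library was one of the 3 with a high ratio of Slc2a3 counts to TPM, at 1.49.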

How the results depend on the processing

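Calls differed with and without the 5 shallower libraries. With all 26 libraries 0 members passed edgeR's test in any comparison, and 1, Slc2a1, passed at low intensity against the controls in the deeper libraries, also with only the 2 groups in the fit, with protein-coding genes only and with DESeq2 on the deeper libraries. Of all genes, edgeR called 0.597% there in the deeper libraries and DESeq2 3.19%. The fit of only the 2 groups called 14 higher and 7 lower of 12428 genes, and that of protein-coding genes 80 and 26 of 13201. On the static array against the controls, 1 member passed under these 4 settings and also with DESeq2 on all libraries and with limma's voom with quality weights on all or on the deeper libraries. There the fit of only the 2 groups called 14 higher and 28 lower of 13335 genes, and that of protein-coding genes 35 and 59 of 13201. In the deeper libraries edgeR called 0.713% of all genes, DESeq2 2.58% and limma 1.03%. On all libraries DESeq2 called 0.0671% and limma 0.282%. Leaving out 1 library did not change the Slc2a1 call in either comparison: over both sets of fits the members called were 0 to 1 at low intensity and on the static array, 0 in every fit of all libraries and 1 in every fit of the deeper ones. At high intensity against the controls they were 0 to 1 (Ldhb, without high-intensity replicate 6 of the deeper libraries).

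Among the other pathway genes, 0 passed edgeR's test over all libraries with the low-count filter. At high intensity against the controls 2 passed without the low-count filter, 5 with protein-coding genes only and 10 with DESeq2 on the deeper libraries, and leaving out 1 library gave 0 to 5, of which 5 when replicate 6 of high intensity and 3 when replicate 6 of the controls was absent. Of all genes, 187 were called higher and 33 lower of 40504 without the filter, and 84 and 45 of 13201 with protein-coding genes only. DESeq2 called 3.16% of all genes. At low intensity 1 passed without the filter, where 84 were called higher and 69 lower of 40504 genes. With DESeq2 on the deeper libraries 3 passed there (3.19% of all genes), and leaving out 1 library gave 0 to 2. For high against low intensity 5 passed with DESeq2 on the deeper libraries (0.278% of all genes). On the static array 1 passed in the deeper libraries, with limma's quality weights on all libraries or with protein-coding genes only, and 2 with DESeq2 or limma on the deeper libraries, and leaving out 1 library gave 0 to 2. The shares of all genes called on the static array under these settings are given in the paragraph before. The cause of the differences between settings was not tested.

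Of the 50 member fold changes, 6 had another sign in the deeper libraries than in all libraries, 4 with DESeq2, 3 with limma's quality weights and 18 with limma on log2(TPM + 0.1). The TPM setting includes low-intensity replicate 6, where every member but Pkm had 0 TPM. On the static array against the controls the median over all genes was 0.09 in the main test, 0.23 with DESeq2 on all libraries and 1.00 with log2(TPM + 0.1). None of the 20 ratio tests passed under the settings run. In unpaired groups of 3 to 5 deeper libraries the exact p cannot go below 0.00794 to 0.0571. Paired by replicate number there were 2 to 4 pairs, and the smallest exact permutation p was 0.125. So few pairs allow no p under 0.05, so the paired setting could not pass. Alternatives on protein-coding genes only, DESeq2 and limma on the deeper libraries, and rescaled TPM were added after the data were seen. In no comparison did every same-numbered pair of libraries deviate together (r = -0.15 to 0.14 over all libraries), so the numbers were not read as pairs. For actuated against static array, however, 3 of 4 pairs were best matched by their own number over all libraries, and 2 had r over 0.1. In the deeper libraries these were 2 and 2 of 3 pairs (r = -0.12 to 0.18). Pairing within the array arm thus remains possible, and the main actuation test was unpaired. With the replicate number as a block, 0 members passed over all libraries and 1 in the deeper libraries, Slc2a1 on the static array (edgeR adjusted p = 0.0347, and 0.0512 at low intensity). At the depth of the biochemical arm, 55 of 100 simulated 2-fold changes were recovered at low intensity against the controls. These were genes of any level, so the share is not that of the members and does not cover changes under 2-fold.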
